A study of Homo sapiens with 2 samples.

Results

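Lactate is made and moved by a small group of genes, and 6 of them are described here: the lactate dehydrogenases LDHA and LDHB, the monocarboxylate transporters SLC16A1, SLC16A3 and SLC16A7, and BSG, which encodes a partner protein of these transporters. They were picked by name from the 22595 gene symbols of the deposited tables, with earlier results of these data known. The RNA came from 786-O cells, an established line of human clear cell renal carcinoma without functional VHL, a subunit of the ubiquitin ligase through which HIF proteins are degraded. One culture was kept in medium with 0 mM glucose and the other in medium with 25 mM glucose, and each gave 1 RNA-seq library of 31345853 and 27317598 counts. A second label, LucG without glucose and LucF with glucose, is not explained in the labels, so a further difference between the cultures cannot be told apart from glucose. Neither the time without glucose nor the library preparation is stated in the labels. There were no replicates, so no difference below has a replicate check, no test was possible, and every interval covers counting error only.

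Lactate dehydrogenase is a tetramer that interconverts pyruvate and lactate while it cycles NADH and NAD+. LDHA encodes the M subunit, which favours the making of lactate, and LDHB the H subunit, which favours its use. Lactate leaves or enters the cell with a proton through the monocarboxylate transporters: MCT4 (SLC16A3) is known as the exporter of glycolytic cells, MCT1 (SLC16A1) works in either direction, and MCT2 (SLC16A7) has a high affinity for its substrates. Basigin, the product of BSG, is the single-pass membrane glycoprotein that brings MCT1 and MCT4 to the cell surface. In clear cell renal carcinoma, glycolytic genes are known to be active because HIF proteins persist without VHL.

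The coding sequences of LDHA and LDHB are similar enough to raise the question whether their counts can be kept apart. Over 995 aligned coding bases, 69.0% were identical, and the longest run that both share exactly was 17 bases. The stretch around that run is shown because it holds the longest exact match of the pair, with capitals at the 24 of 90 bases that differ.
LDHA coding bases 106 to 195: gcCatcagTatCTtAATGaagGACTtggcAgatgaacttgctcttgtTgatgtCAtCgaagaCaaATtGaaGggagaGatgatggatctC
LDHB coding bases 109 to 198: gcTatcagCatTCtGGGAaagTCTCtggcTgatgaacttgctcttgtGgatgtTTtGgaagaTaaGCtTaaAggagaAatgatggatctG
The shared run is gatgaacttgctcttgt. No window of 50 coding bases was common to LDHA and LDHB. Processed pseudogenes come closer to LDHA: 240 of its 947 windows of 50 coding bases (25.3%) occurred exactly in transcripts of 5 LDHA pseudogenes annotated by GENCODE v29, led by LDHAP4 with 150 windows. For LDHB the number was 36 of 953 windows (3.78%), all in the pseudogene LDHBP2. This leaves aside AC010197.2, a GENCODE gene of the same strand at the LDHB locus itself, which shares 839 of the 953 windows. For SLC16A1, SLC16A3, SLC16A7 and BSG the number was 0. Exons of AC010197.2 cover 997 of the 1303 exon bases of the main LDHB transcript and 937 coding bases. Reads from these bases cannot be told apart between AC010197.2 and LDHB. The authors' treatment of reads with several matches is not stated in the labels, so the LDHA count is uncertain to that extent, and the part of this in its difference between the libraries was not tested.

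Promoter sequence was examined for the letters ACGTG, the core of the element that HIF proteins bind, and for CACGTG, the E-box bound by MYC and MondoA family proteins, which contains the core on both strands. RefSeq windows of the 250 bases before a transcript start (build GRCh38.p14) were at hand for 5 of the 6 genes and numbered 12. The stretches that hold the letters are shown for the genes where they occur, on the plus strand, with ACGTG of either strand in capitals.
LDHA, chr11:18394366-18394395: agactcccagcgCACGTGgagcagtctgcc
LDHA, chr11:18394470-18394499: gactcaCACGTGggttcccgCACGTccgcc
SLC16A3, chr17:82228968-82228997: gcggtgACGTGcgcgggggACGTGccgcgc
BSG, chr19:572391-572420: gcaacgccgggtCACGTGcgccgccgcccg
The core was present in 1 of 2 windows of LDHA, 1 of 5 of SLC16A3 and 1 of 2 of BSG, and in none of the windows of LDHB (1) and SLC16A7 (2). CACGTG had 2 matches in the LDHA window, 1 in the BSG window and 0 in the 5 SLC16A3 windows. Of all 35116 such windows, 18.5% held ACGTG and 6.34% held CACGTG, on either strand. These are matches of letters and not measured binding. All 30 bases of the second LDHA stretch and 8 of the first lie in exons of other LDHA transcripts in GENCODE v29.

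All 6 genes were measured, that is, had at least 20 counts over both libraries, as did 14240 symbols in all. Levels of different genes are set side by side as the deposited RPKM, which divides the count by the length of the gene model. Without glucose, LDHB stood first at 321.8 RPKM, followed by LDHA at 252.9, BSG at 185.1, SLC16A1 at 70.35, SLC16A3 at 29.89 and SLC16A7 at 0.71 RPKM. With glucose, LDHA stood first at 648.1 RPKM, followed by LDHB at 365.9, BSG at 169.5, SLC16A1 at 90.32, SLC16A3 at 87.16 and SLC16A7 at 0.62 RPKM. The order of LDHA and LDHB thus differed between the libraries per length of gene model, which is shorter for LDHB. By counts, without that division, LDHA led LDHB in both libraries, at 1.26 times without glucose and 2.83 times with glucose. The closest neighbours were SLC16A1 and SLC16A3 with glucose, where counts of SLC16A3 per kilobase were 0.965 times those of SLC16A1 with a counting interval that just excluded 1.

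**Figure D1:**
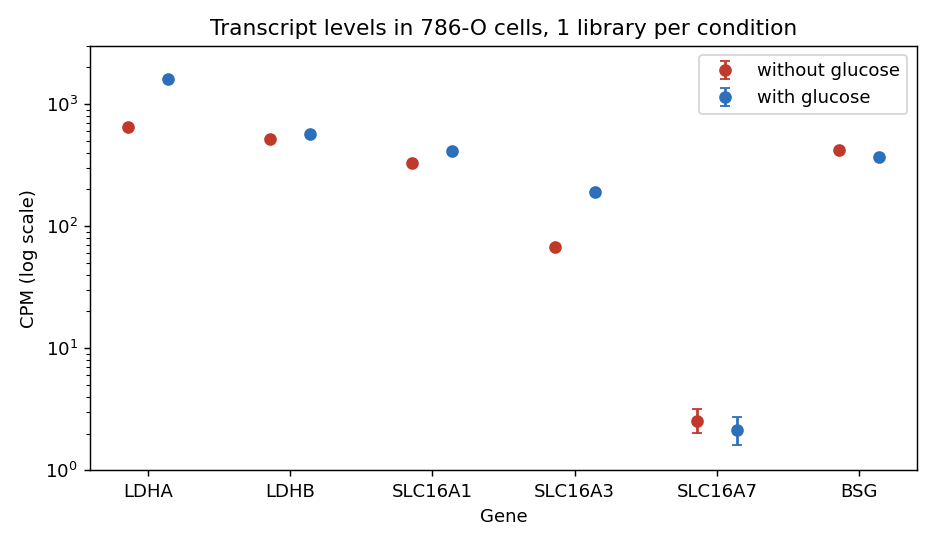
Counts scaled by library size (CPM, log scale) of the 6 genes in the library without glucose (left point of each pair) and with glucose (right point), with 95% Poisson counting intervals that are mostly smaller than the points. LDHA and SLC16A3 stand apart between the libraries, and SLC16A7 is near 2 CPM in both.

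Of the 6 genes, LDHA and SLC16A3 were lower without glucose by a rule of size, which asks that the 95% counting interval of the ratio lie wholly below 0.5-fold. That makes 2 of 6, where 6.2% of all measured genes (883 of 14240) passed the same bound. None of the 6 was higher by the matching bound of 2-fold, which 3.75% of measured genes passed. The log2 ratios of the 6 genes, without over with glucose, had a median of -0.22, beside a median of 0.01 over all measured genes with quartiles at -0.45 and 0.42. Ratios were taken between counts per 1e6 of the effective library size (CPM), which follow the share of a gene in the RNA of the library. In a bulk culture, fewer cells that express a gene and less RNA per cell cannot be told apart.

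LDHA had 19972 counts without glucose and 44651 counts with glucose. Scaled by library size this was 649.6 CPM without glucose (counting interval 640.6 to 658.7) and 1603 CPM with glucose (1588 to 1618). LDHA was thus 2.47-fold lower without glucose, with an interval of 2.43-fold to 2.51-fold and a log2 ratio of -1.30. All 11 exons of its gene model had more than 10 reads in both libraries. Among measured genes LDHA ranked 382 by RPKM without glucose and 196 with glucose, and 6.78% of measured genes had a lower log2 ratio. Among the 1424 measured genes with the highest mean CPM, to which LDHA belongs, 5.97% (85 genes) were lower by the same rule.

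LDHB, the H subunit gene, had 15905 counts without glucose and 15777 counts with glucose. On the CPM scale these were 517 without glucose and 566 with glucose, a log2 ratio of -0.13 with an interval of -0.16 to -0.10. The interval did not reach 0, and the difference was well inside the 2-fold bound. Both lactate dehydrogenase genes together had 1167 CPM without glucose and 2170 CPM with glucose, a log2 ratio of -0.89. LDHA and LDHB lie on different chromosomes, in hg19 coordinates chr11:18415936-18429765 on the plus strand and chr12:21788275-21810789 on the minus strand.

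**Figure D2:**
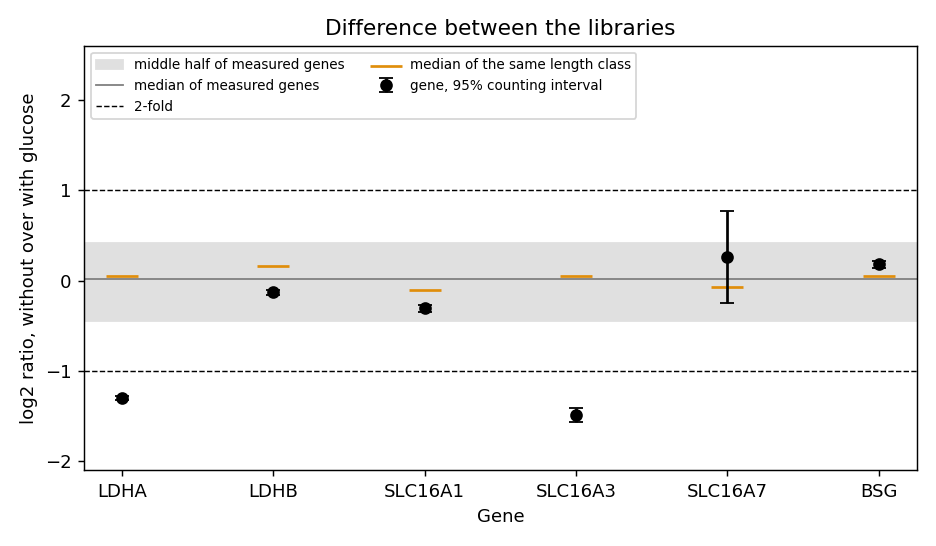
Log2 ratio of CPM without glucose over CPM with glucose for the 6 genes, with 95% counting intervals, the range between the quartiles (grey band) and the median (grey line) of all measured genes, and the median of genes of like length (orange dashes). LDHA (-1.30) and SLC16A3 (-1.49) lie below the dashed 2-fold line and the other 4 genes lie near 0.

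SLC16A3, which encodes the lactate exporter MCT4, had 2072 counts without glucose and 5271 counts with glucose. These correspond to 67.4 CPM without glucose (interval 64.5 to 70.4) and 189 CPM with glucose (184 to 194). The gene was 2.81-fold lower without glucose, with an interval of 2.67-fold to 2.96-fold, and 5.13% of measured genes had a lower log2 ratio. By RPKM it ranked 2639 without glucose and 885 with glucose. In both libraries 4 of its 7 exons had more than 10 reads. Its hg19 position is chr17:80186293-80197369 on the plus strand, and no other gene model of the tables overlaps it. GENCODE v29 places parts of 4 other genes over this locus, among them CSNK1D, a casein kinase gene of the other strand with 1227 counts without glucose and 1613 counts with glucose. Exons of CSNK1D cover 146 of the 2002 exon bases of the main SLC16A3 transcript and 0 coding bases, and those of the other 3 genes cover 0. The use of strand in counting is not given, so reads from these 146 bases cannot be told apart between the genes.

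SLC16A1, which encodes MCT1, had 10184 counts without glucose and 11406 counts with glucose. The levels were 331 CPM without glucose and 409.5 CPM with glucose, a log2 ratio of -0.31 with an interval of -0.34 to -0.27. SLC16A1 was therefore lower by less than the rule asks for. Its gene model, chr1:113454470-113498975 on the minus strand of hg19, contains the pseudogene AKR7A2P1 on the other strand, which had 6 counts without glucose and 14 with glucose. GENCODE v29 also annotates the antisense gene SLC16A1-AS1 across the SLC16A1 locus. Its exons cover 0 of the 3910 exon bases of the main SLC16A1 transcript; other SLC16A1 transcripts were not compared.

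SLC16A7, which encodes MCT2, was barely transcribed in either library. It had 78 counts without glucose (2.54 CPM, interval 2.01 to 3.17) and 59 counts with glucose (2.12 CPM, interval 1.61 to 2.73). Its log2 ratio of 0.26 had an interval of -0.25 to 0.77, so a difference was not detectable at this depth. Of its 5 exons, 2 had more than 10 reads in each library. The gene shares chromosome 12 with LDHB and lies at chr12:60083126-60175408 on the plus strand in hg19.

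BSG, the gene of the transporter partner basigin, had 12932 counts without glucose and 10328 counts with glucose. The levels were 421 CPM without glucose and 371 CPM with glucose. The log2 ratio was 0.18 with an interval of 0.14 to 0.22, slightly above 0 and far inside the 2-fold bound. The gene lies at chr19:571325-583493 on the plus strand in hg19, and 8 of its 10 exons had more than 10 reads in both libraries. BSG transcripts were thus not lower in the library in which SLC16A3 and SLC16A1 were lower.

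**Figure D3:**
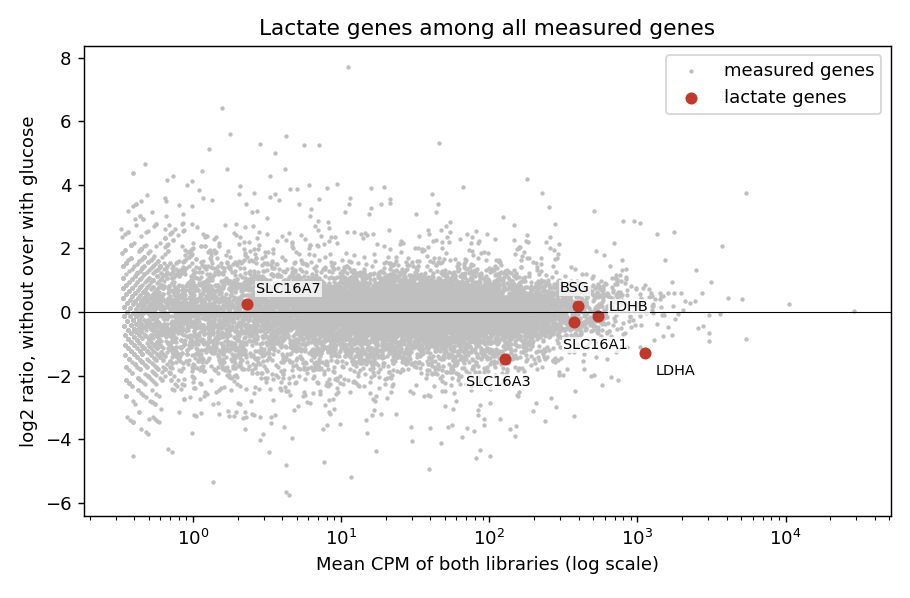
Log2 ratio (without over with glucose) against mean CPM (log scale) for the 14240 measured genes (grey) and the 6 lactate genes (red). LDHA and SLC16A3 lie at the lower side of the cloud at high levels, with 6.78% and 5.13% of measured genes below them.

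The balance between paired genes inside a library does not depend on how the libraries are scaled. Per kilobase of gene model, LDHA counts were 0.786 times those of LDHB without glucose (interval 0.770 to 0.802) and 1.77 times with glucose (1.74 to 1.80). The change in this ratio was -1.17 on the log2 scale, with an exact conditional interval of -1.21 to -1.13. LDHA therefore made up 44.0% of the lactate dehydrogenase transcripts per kilobase without glucose and 63.9% with glucose, so LDHB led without glucose on this scale. By counts LDHA was 1.26 times LDHB without glucose and 2.83 times with glucose, so which subunit leads without glucose depends on the lengths used, and the change of -1.17 does not.

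The transporter pair differed by a similar amount. Per kilobase, SLC16A3 counts were 0.425 times those of SLC16A1 without glucose (interval 0.405 to 0.445) and 0.965 times with glucose (0.934 to 0.997), a change of -1.18 on the log2 scale with an interval of -1.27 to -1.10. Of the transcripts of the 3 transporters per kilobase, SLC16A1 made up 69.7% without glucose and 50.7% with glucose, SLC16A3 29.6% without glucose and 48.9% with glucose, and SLC16A7 under 1% in both. The 3 transporters together had 401 CPM without glucose and 601 CPM with glucose, a log2 ratio of -0.58. In a comparison added after the values were seen, BSG counts per kilobase were 6.19 times those of SLC16A3 without glucose and 1.94 times with glucose.

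**Figure D4:**
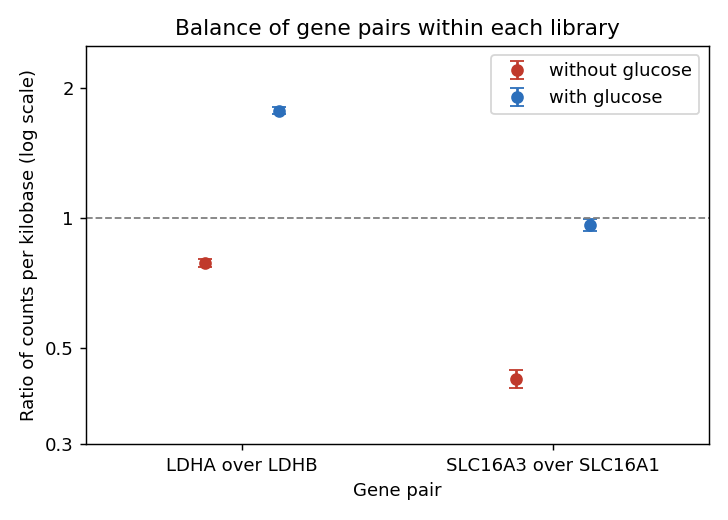
Ratio of counts per kilobase (log scale) of LDHA over LDHB and of SLC16A3 over SLC16A1 in the library without glucose (left point) and with glucose (right point), with 95% counting intervals. The LDHA over LDHB ratio is 0.786 without glucose and 1.77 with glucose, on either side of the dashed line at 1 per kilobase. By counts both ratios are above 1 (1.26 and 2.83), and the change of -1.17 on the log2 scale is the same.

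The relatives of these genes were mostly scarce. Of 5 other lactate dehydrogenase genes, 2 were measured: LDHC, the testis form, which follows LDHA on chromosome 11 and had 69 counts in each library, and UEVLD, which carries a lactate dehydrogenase domain, at 27.6 CPM without glucose and 33.0 CPM with glucose (log2 ratio -0.26). LDHD, the mitochondrial D-lactate dehydrogenase, LDHAL6A and LDHAL6B had at most 9 counts. Of 10 other SLC16 genes considered 7 were measured, with 1 higher and 0 lower by the rule and a median log2 ratio of 0.48. Over all measured genes 3.75% were higher and 6.2% lower, and the count describes these 7 SLC16 genes only. The higher gene was SLC16A6 (MCT7), with 108 counts without glucose and 25 with glucose, a log2 ratio of 1.97 with an interval of 1.33 to 2.66. The creatine transporter gene SLC16A12 had 146 counts without glucose and 60 with glucose (log2 ratio 1.14), and SLC16A10, which encodes an aromatic amino acid transporter, 28 without glucose and 62 with glucose (-1.29), both with intervals that crossed the 2-fold bound. SLC16A4 had 25 counts without glucose and 13 with glucose (0.80), and SLC16A5 29 without glucose and 21 with glucose (0.32), both with intervals that included 0. The log2 ratios of SLC16A9 and SLC16A13 were 0.48 and -0.51.

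The sodium-coupled lactate transporters SLC5A8 and SLC5A12 had at most 7 counts in a library and were not measured. Of the basigin relatives, NPTN, which encodes neuroplastin, had 78.7 CPM without glucose and 116 CPM with glucose (log2 ratio -0.56), and EMB, which encodes the transporter partner embigin, had 6 counts in each library. Among 5 genes of proteins that bind or accompany basigin, 3 were higher without glucose, where 3.75% of all measured genes were. With a list this short the count describes these genes only. SLC3A2, the heavy chain of the CD98 amino acid transporters, had 1662 CPM without glucose and 228 CPM with glucose, and its partner SLC7A5 had 180.1 CPM without glucose and 78.2 CPM with glucose. PPIB, a cyclophilin of the endoplasmic reticulum, had a log2 ratio of 1.36, and PPIA, the cyclophilin known as an extracellular ligand of basigin, had -0.31. CD44 had a log2 ratio of 0.24.

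The enzymes that feed pyruvate to lactate dehydrogenase lay closer to 0 on the log2 scale than LDHA. Of 9 measured genes of lower glycolysis, 0 passed the rule in either direction, which is near the background of 6.2% lower and 3.75% higher over all measured genes. Their median log2 ratio was -0.43. The most negative values were those of PGAM1, phosphoglycerate mutase (-0.98), and PKM, the pyruvate kinase of these cells, at 2135 CPM without glucose and 3995 CPM with glucose (-0.90). ALDOA, an aldolase, had 0.60, and ALDOC, at under 1 CPM in both libraries, had -0.70 with an interval of -1.68 to 0.25 that included 0. Of the 15 genes of pyruvate entry into mitochondria and of pyruvate dehydrogenase, all measured, 0 passed the rule and the median was 0.01. Among them were the kinases that switch the complex off, PDK3 (-0.95), PDK1 (0.57) and PDK4, which had 42 counts without glucose and 14 with glucose (1.44, interval 0.54 to 2.43), and MPC1, a subunit of the mitochondrial pyruvate carrier (0.79). PDK2, the remaining kinase of that kind, was named after its values were seen and had -0.56.

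Acid handling works beside proton-coupled lactate export, and 3 genes of it are given here as single values, since the list is not complete and its count is not read against the 6.2% of all measured genes that were lower by the rule. The sodium bicarbonate cotransporter gene SLC4A4 had 7.38 CPM without glucose and 32.1 CPM with glucose (log2 ratio -2.12). The carbonic anhydrase genes CA2 and CA12 had log2 ratios of -1.43 and -1.26. CA2 and CA12 were also the genes of the lists with log2 ratios nearest to those of LDHA (differences of 0.12 and 0.04) and SLC16A3 (0.06 and 0.23), among 47 list genes with at least 10 CPM in both libraries. SLC25A12, a mitochondrial carrier (log2 ratio -1.18), lay as near to LDHA as CA2 did at these digits. This likeness rests on 2 libraries and was sought only among these 47 genes. Over all measured genes 883 were lower by the rule, and their nearness was not compared. A link of CA2, CA12 or SLC25A12 to LDHA and SLC16A3 was not tested. CA9 had 0 counts without glucose and 4 with glucose.

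Of the 5 measured genes among known regulators of LDHA and its partners, 1 was higher, where 3.75% of all measured genes were. With a list this short the count describes these genes only. EPAS1, the HIF-2 alpha subunit of these cells, had 422 CPM without glucose and 134 CPM with glucose (log2 ratio 1.65). MYC, a transcription factor known to act on LDHA, had 294 CPM without glucose and 152 CPM with glucose (0.95), with an upper interval bound of 1.01. HIF1A had a log2 ratio of -0.25 and ESRRA 0.28. PPARGC1A, at under 1 CPM in both libraries, had 0.68 with an interval of -0.23 to 1.63 that included 0. The lactate receptor gene HCAR1 had 2 counts in each library. These are transcript levels from 1 library per condition, and whether the encoded proteins act on LDHA in these cells was not tested.

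**Figure D5:**
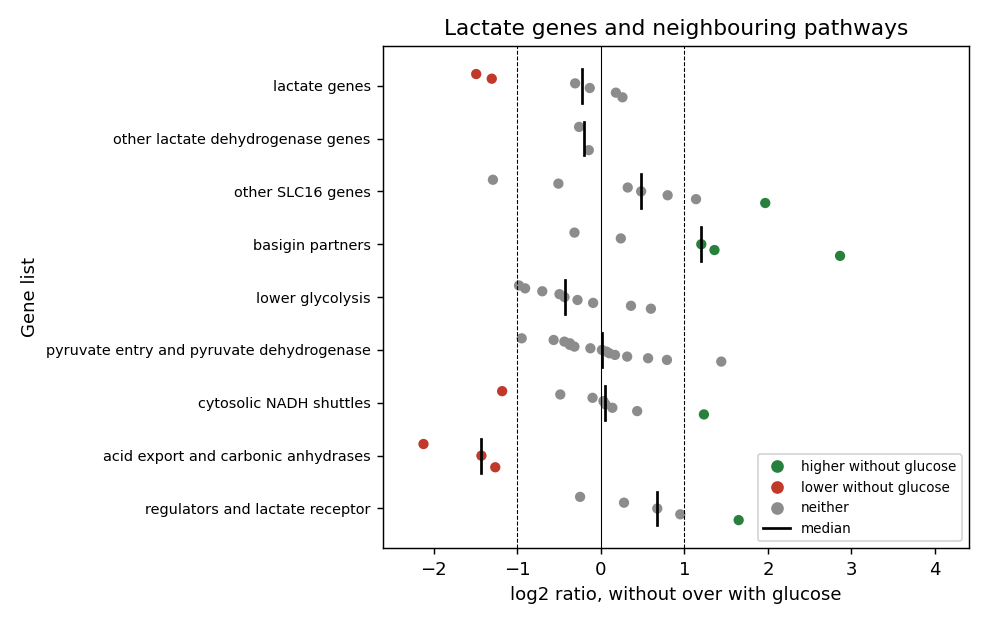
Log2 ratio (without over with glucose) of each measured gene in the 6 lactate genes and in 8 gene lists, with the median of each list as a black bar and the 2-fold bounds dashed. Genes lower by the rule of size are red and genes higher are green. In the top row LDHA and SLC16A3 lie left of the lower bound, and the 9 genes of lower glycolysis all lie inside the bounds.

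The libraries also differed in ways that no lactate gene defines. Small RNA genes (snoRNA, scaRNA and microRNA) held 7.99% of counts without glucose and 5.83% with glucose. With measured genes split into 10 classes by length, median log2 ratios ran up to 0.31 for the shortest and down to -0.21 for the longest gene models. The length classes of LDHA and SLC16A3 both had medians of 0.05. Of the 9 markers of 786-O cells 8 were measured. PAX8 (log2 ratio -0.07), VIM (0.42) and CDH2 (0.14) lay inside 2-fold. PAX2 had 37 counts without glucose and 67 with glucose, with an interval that crossed the 2-fold bound. CDH6 (-4.52), LHX1 (-2.53) and VCAM1 (-2.29) were lower by the rule, and EPAS1 (1.65), given above, was higher. Over all measured genes 6.2% were lower and 3.75% higher, and with a list this short the count describes these markers only. Of 13 markers of other cell types, 2 were measured, CD68 (1.26) and LUM (-1.70). The 13 together came to 29.9 CPM without glucose and 22.5 CPM with glucose, the defining markers PTPRC, PECAM1 and HBB had at most 9 counts, and HBA1 had 0 in both.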

How the data were processed

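Total RNA was harvested with Trizol (per the labels' protocols) and placed on hg19, per the submitters' processing notes. The sources used here give neither aligner nor counting program. Each of the 2 deposited tables held 24364 rows with a raw count and an RPKM per gene model, per the file headers. The deposited RPKM equalled the count per kilobase divided by 1 constant per library (31.0 without glucose and 27.1 with glucose, in units of 1e6 reads) within 1% in 100% of rows with at least 1000 counts. Rows that repeated the place, length and both counts of another symbol (528) were left out before the counts of each symbol were added up. Start positions are printed as in the tables.

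Effective library sizes came from TMM in edgeR 4.0.16 (R 4.3.3) over genes with at least 20 counts, with factors of 0.981 without glucose and 1.02 with glucose. Ratios carry exact 95% Clopper-Pearson intervals, and changes of within-library ratios exact conditional intervals (Python 3.11.15, scipy 1.17.1). A gene was higher or lower when its interval lay wholly beyond 2-fold or 0.5-fold. With 1 library per group no p-value is given. PCR copies are not independent molecules. The procedure was run on simulated Poisson counts, which checks the calculation and holds no variation between cultures. Genes named are the 6, their families, list genes past the rule and, in most lists, up to 4 further genes. All 12 lists matched the tables, with PKM2, BRP44L, BRP44 and GPR81 taken as PKM, MPC1, MPC2 and HCAR1. A few genes of the lists are not reported here and were left out of the counts and medians of their lists. The genes and lists were chosen with earlier results of these data known.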

Additional observations from a re-analysis of the deposited data

How the results depend on the processing

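LDHA and SLC16A3 were the 2 genes lower by the rule under scaling by total counts, upper-quartile and median-of-ratios scaling, a 1.5-fold bound and a minimum of 1 count, and without small RNA genes, an alternative chosen after seeing the data; none of the 6 was higher under any of these. The share of all measured genes lower by the rule was 4.43% with a minimum of 1 count, 12.6% with the 1.5-fold bound, and from 5.91% to 6.83% under the other settings named. The share higher was 2.69% with a minimum of 1 count, 10.2% with the 1.5-fold bound, and from 3.35% to 4.1% under the others. With 3-fold asked for, 0 of the 6 were lower, because both folds lie below 3. That lower bound was passed by 2.15% of measured genes. Scaling by total counts gave log2 ratios of -1.36 for LDHA, -0.19 for LDHB, -0.36 for SLC16A1 and 0.13 for BSG, and upper-quartile scaling gave -1.27 for LDHA, -0.093 for LDHB and 0.22 for BSG. With the median of the length class subtracted the values were -1.36 for LDHA, -0.30 for LDHB, -0.20 for SLC16A1 and 0.13 for BSG, and the changes within libraries were -1.06 for LDHA over LDHB and -1.34 for SLC16A3 over SLC16A1. The other values stayed inside their counting intervals, and no direction turned. Leaving out a replicate was not an option, and no paired analysis was possible because a single library stood on either side. Depth limits SLC16A7 alone among the 6.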

Other observations

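Cytosolic NADH can also be reoxidised without lactate dehydrogenase, by the shuttles that pass its electrons to mitochondria. Of 8 measured genes of these shuttles, 1 was higher and 1 lower without glucose, with a median log2 ratio of 0.05. Over all measured genes 3.75% were higher and 6.2% lower, and with a list this short the count describes these genes only. GOT1, the cytosolic aspartate aminotransferase, had 212 CPM without glucose and 89.9 CPM with glucose (1.23), and SLC25A12, a mitochondrial carrier of aspartate and glutamate, had 13.95 CPM without glucose and 31.6 CPM with glucose (-1.18). The paralog SLC25A13 had -0.48, the mitochondrial carrier gene SLC25A11 had 0.44, and the malate dehydrogenase genes MDH1 and MDH2 had -0.10 and 0.14. GPD2, the mitochondrial glycerol-3-phosphate dehydrogenase, had 61.3 CPM without glucose and 59.9 CPM with glucose, and its cytosolic partner GPD1 had at most 5 counts.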
